A study of Mus musculus with 147 samples.

Results

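The genes described here are imprinted genes of the mouse, followed through male germ cell development and in the somatic cells of the gonad. They were taken by name from a list of 33 genes, and 32 of them have a row among the 31053 genes of the deposited table of UMI counts (a UMI, or unique molecular identifier, marks a single captured transcript). The remaining gene, *Rian*, was not analysed here. No measured value entered the selection rule.

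The male germline had been followed by sequencing single cells at 28 time-points, the first E6.5 and the last the adult, and only wild-type cells were used here. Fetuses and pups came from C57BL/6 females mated to BVSC males, which carry 2 reporter transgenes, *Blimp1*-mVenus and *Stella*-ECFP. Reporter-positive cells were sorted from whole embryos at E8.5–E10.5 and from gonads at E11.5–E18.5, where cells without the signal were kept as well, and from E14.5 on the ECFP signal alone marked germ cells because mVenus faded. At E10.5 and E11.5, the paper states, males were picked by a PCR for *Sry*. Part of the E10.5 cells are nevertheless labelled None instead of Male, and they were not left out here. No such step is given for E8.5 and E9.5, so the sex of those embryos is not known here. After birth, cells were picked from digested testes without a reporter gate, and at PND30 they were also sorted by DNA content into 1N, 2N and 4N gates. Libraries were made by a modified Smart-seq2 procedure that keeps the 3′ end of each cDNA.

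Cells of the same time-point and biological replicate form a pool, and the 61 wild-type pools held 11598 cells after the quality filter. Germ cells were the BVSC-gated cells before birth and the cells with at least 150 CPM (counts per 1000000 UMIs) of *Ddx4*, a germline RNA helicase, after birth. They numbered 8498 in 54 pools. Somatic cells, 1067 in 29 pools, were reporter-negative before birth, and after birth had under 50 CPM of *Ddx4* and at least 150 CPM of 13 summed somatic markers. A further 1626 cells outside these gates at E6.5 and E7.5 are called early embryo cells, and 375 postnatal cells met neither rule. The summed germ cells of a pool held 12409411 to 190897809 UMIs and the summed somatic cells 1119597 to 14846785.

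Imprinted genes are transcribed mainly from the allele inherited from one parent, because DNA methylation laid down in either the oocyte or the male germline marks control regions that act on whole gene clusters. In primordial germ cells (PGCs) these marks are erased around the time the cells colonize the gonad, and in the male germline the paternal pattern is written anew in fetal prospermatogonia. Many imprinted genes regulate fetal growth, placental function or behaviour. UMI counts do not tell the alleles apart, so all values are totals of both alleles. Of the measured members, 19 are usually paternally and 12 maternally expressed, while *Gnas*, the stimulatory G protein alpha subunit, differs by transcript and tissue. They lie on 10 chromosomes, 15 of them on chromosome 7, with positions given for mm10. Another counted gene overlaps 14 members, on the opposite strand for 13 and on the same strand for 2. Whether counting used strand, and how reads that lie in both genes were counted, was not given in the sources used here. The counts of these members may therefore hold reads of a partner or lack reads shared with it.

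Promoter windows of 28 of the 33 listed genes are in RefSeq's table (GRCm38.p6, the sequence of mm10), each with 250 bases before and 50 after a RefSeq transcript start, which need not be the outermost start of the gene. In the window of each gene with the most CG dinucleotides, the listed genes held a median of 15 CG against 8 over 27025 genes. The hexamer TGCCGC, counted on both strands and whose methylated form is recognized by the imprint-protecting zinc-finger protein ZFP57, was present in 8 of the 28 windows, or 28.6%, and in 12.2% of those of all genes. The hexamer itself contains a CG, and these shares were not adjusted for the number of CG. A match is a description of these letters and not a binding site. Shown here are 5 of the 8, because their genes were low in germ cells at E11.5–E13.5 and high around birth, and the window of *Asb4*, which lacks the hexamer and whose level fell after birth and rose in the adult. The windows of *Mest*, *Snrpn* and *Zim1* hold the hexamer too, and the level of *Snrpn* took the opposite course. *Dlk1* and *Mirg*, also low at E11.5–E13.5 and higher around birth, lack it in their windows. A link between the hexamer and the levels was not tested. Capitals mark the hexamer, or its reverse complement where it lies on the other strand. The *Grb10* window (chr11:12037371-12037670, minus strand) holds 45 CG, that of *Plagl1* (chr10:13090582-13090881, plus strand) 26, those of *Nnat* (chr2:157559828-157560127, plus strand) and *Nap1l5* (chr6:58907077-58907376, minus strand) 17 each, that of *Meg3* (chr12:109540746-109541045, plus strand) 13 and that of *Asb4* (chr6:5390160-5390459, plus strand) 8.
Grb10: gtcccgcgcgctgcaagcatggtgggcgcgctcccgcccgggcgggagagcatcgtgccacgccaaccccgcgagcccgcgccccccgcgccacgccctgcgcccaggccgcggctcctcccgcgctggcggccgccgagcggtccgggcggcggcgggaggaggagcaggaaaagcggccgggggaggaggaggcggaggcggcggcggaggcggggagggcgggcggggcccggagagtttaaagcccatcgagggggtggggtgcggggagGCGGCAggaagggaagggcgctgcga
Plagl1: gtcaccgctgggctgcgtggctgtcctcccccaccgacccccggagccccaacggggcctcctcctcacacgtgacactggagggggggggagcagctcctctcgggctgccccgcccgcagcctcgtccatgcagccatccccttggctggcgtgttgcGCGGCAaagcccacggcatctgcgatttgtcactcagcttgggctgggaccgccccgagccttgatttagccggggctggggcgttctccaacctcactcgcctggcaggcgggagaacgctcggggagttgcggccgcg
Nnat: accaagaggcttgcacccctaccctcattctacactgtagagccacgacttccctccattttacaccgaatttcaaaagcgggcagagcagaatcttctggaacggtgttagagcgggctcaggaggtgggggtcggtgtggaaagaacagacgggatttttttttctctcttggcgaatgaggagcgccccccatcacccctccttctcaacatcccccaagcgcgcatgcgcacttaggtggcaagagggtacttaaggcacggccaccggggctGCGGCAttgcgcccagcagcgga
Nap1l5: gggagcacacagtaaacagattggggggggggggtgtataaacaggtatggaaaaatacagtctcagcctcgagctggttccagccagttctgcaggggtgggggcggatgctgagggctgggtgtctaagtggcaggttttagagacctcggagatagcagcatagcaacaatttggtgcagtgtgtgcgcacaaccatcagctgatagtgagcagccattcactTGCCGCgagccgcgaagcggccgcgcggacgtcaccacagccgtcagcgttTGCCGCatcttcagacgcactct
Meg3: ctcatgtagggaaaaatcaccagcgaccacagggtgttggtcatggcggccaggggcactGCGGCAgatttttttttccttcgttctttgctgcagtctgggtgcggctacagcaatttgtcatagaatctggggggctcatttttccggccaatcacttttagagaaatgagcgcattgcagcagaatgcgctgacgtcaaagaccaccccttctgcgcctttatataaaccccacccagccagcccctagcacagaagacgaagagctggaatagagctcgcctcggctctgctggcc
Asb4: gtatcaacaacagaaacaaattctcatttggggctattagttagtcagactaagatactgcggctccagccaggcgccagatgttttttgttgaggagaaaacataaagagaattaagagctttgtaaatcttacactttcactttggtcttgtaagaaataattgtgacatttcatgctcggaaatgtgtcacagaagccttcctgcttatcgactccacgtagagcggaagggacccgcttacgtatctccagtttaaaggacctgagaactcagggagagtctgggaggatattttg

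Some pools stood apart by marker genes outside the list. *Dppa3*, a PGC gene, was at 20.98 CPM in E8.5 replicate 1 and 218 in E8.5 replicate 3 against 665 to 913 in the other pools of E8.5–E10.5, and summed endoderm markers were at 4003 and 2826 CPM there. In Adult replicate 1, *Dazl*, a germ cell RNA-binding protein gene, was at 603 CPM against 36.5 to 117.8 in the other pools of PND30, PND35 and the adult, and summed spermatid markers were at 101.9 CPM against 421 to 1100. The summed somatic markers reached 897 CPM in the germ cells of E17.5 replicate 1 and 830 in those of PND12 replicate 1. Somatic cells of E11.5–E13.5 carried 72.0 to 287 CPM of *Dppa3*. In sums over cells, fewer cells of a kind and less RNA per cell cannot be told apart. The paper calls the replicates independent and biological. It lists 1 gonad for each postnatal pool and more than 1 embryo or gonad for each pool before birth. The labels do not say whether replicates were separate litters, so p-values measure only the spread between pools, which may be technical in part.

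Most members were highest in germ cells either before gonad colonization or around birth, and most were lowest in the meiotic and post-meiotic pools. Over 8 stages of germ cells the mean level peaked at E17.5–PND1 for 13 members and at E8.5–E10.5 for 11, and it was lowest at PND30–adult for 21. The means of E8.5–E10.5 include the divergent E8.5 replicates 1 and 3. *Meg3* peaked there through these pools, at 357 and 202 CPM. Its other pools held 38.6 to 61.06 CPM, below its mean of 82.2 at E17.5–PND1. *Slc22a18* was also highest in these pools, at 93.4 and 54.9 CPM against 13.7 to 38.06. The 4 members with their highest mean at PND30–adult were *Asb4*, *Kcnq1*, *Mirg* and *Zdbf2*. *Ube3a* peaked at E11.5–E13.5, *Mest* at PND2–PND4, *Cd81* at PND5–PND8 and *Kcnq1ot1* at PND10–PND14.

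**Figure D1:**
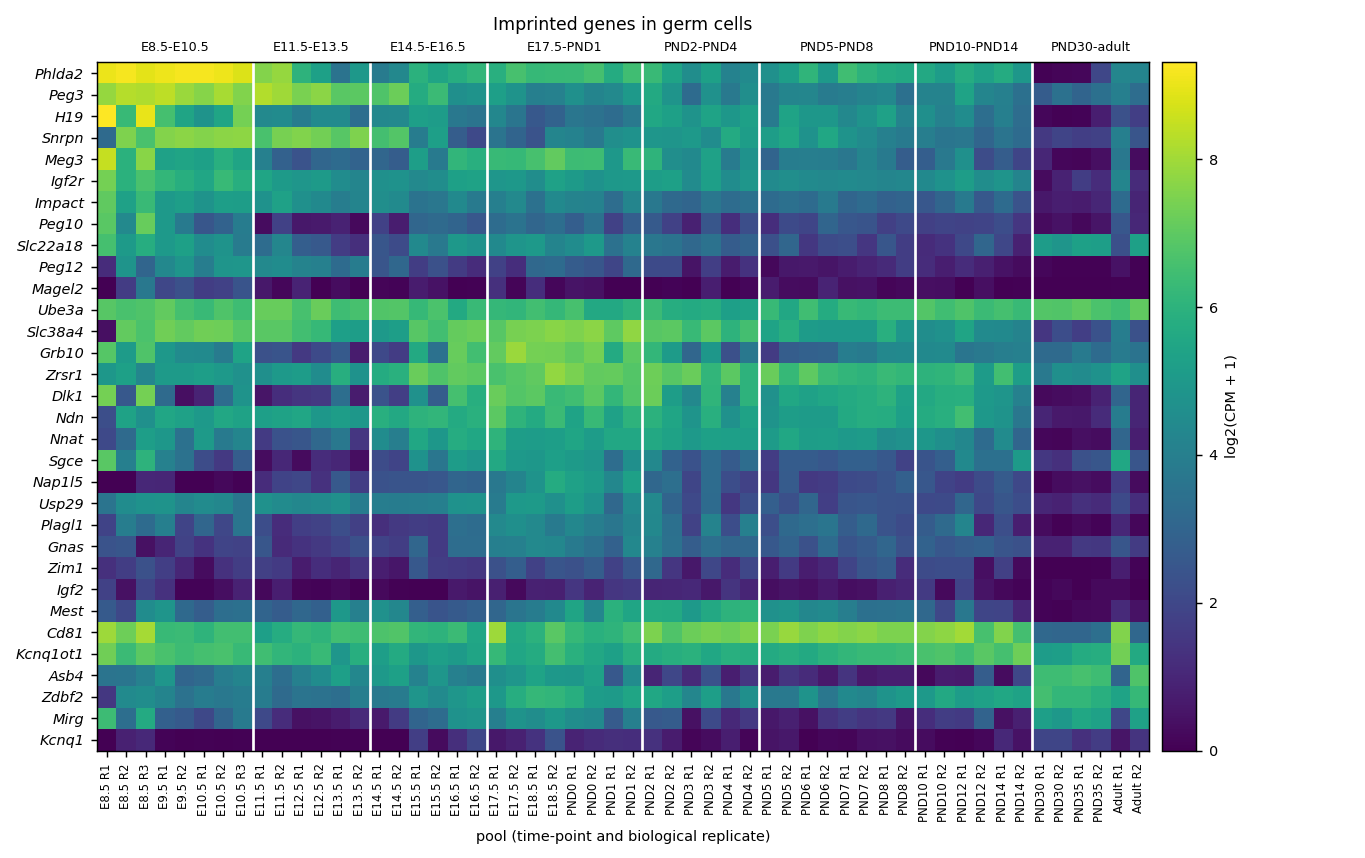
Level of 32 imprinted genes in 54 germ cell pools as colour on a log2(CPM + 1) scale, with a row per gene (ordered by the stage of its highest mean), a column per pool in order of age and white lines between the 8 stages. The genes with a peak at E8.5–E10.5 and those with a peak at E17.5–PND1 form the 2 large blocks, and *Asb4*, *Mirg* and *Zdbf2* are bright at PND30–adult.

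In the gonad before birth, most imprinted genes were at a lower level in germ cells than in the somatic cells around them. These levels in CPM are shares of the UMIs of a class and not amounts of RNA per cell. In 16 pools of E11.5–E18.5 that held both classes, with the pool as a block, 22 of 31 members tested were lower in germ cells and 3 were higher, where 26.5% and 34.5% of all 15217 genes tested were lower and higher. The median log2 difference (germ minus somatic) was -1.96 for members and 0.17 for all genes. Calls are at a false discovery rate (FDR) under 0.05 over all genes tested, by edgeR's quasi-likelihood test, and errors of log2 differences are standard errors.

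*H19*, a long non-coding RNA transcribed next to *Igf2*, was at 4.90, 19.1 and 37.5 CPM in germ cells and at 30.6, 279.6 and 475 CPM in somatic cells (lowest, median and highest of 16 pools). It was lower in the germ cells of every pool, and only the somatic cells of E17.5 replicate 1 came down into the germ cell range. The log2 difference was -4.13 ± 0.30 (edgeR FDR = 1.68e-09). *Igf2*, its neighbour and a fetal growth factor, was close to 0 in germ cells, at 0, 0.175 and 0.817 CPM, and at 0, 4.48 and 19.2 CPM in somatic cells. The ranges overlapped, and the difference of -4.45 ± 0.87 (edgeR FDR = 0.000197) rests on few UMIs. *Gm49394*, which overlaps *Igf2* on the same strand, was at 0 CPM in somatic cells and at every germ cell stage. Whether reads of *Igf2* were lost through this overlap was not tested.

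*Dlk1*, a transmembrane protein of fetal tissues related to Notch ligands, was at 0.444, 7.46 and 144.8 CPM in germ cells and at 64.96, 206 and 571 CPM in somatic cells. The overlap came from germ cells of E16.5 to E18.5 and somatic cells of E11.5, E12.5 and E17.5 replicate 1, and the difference was -4.42 ± 0.66 (edgeR FDR = 9.14e-06). *Sgce*, which encodes epsilon-sarcoglycan, was at 0.193, 7.46 and 47.8 CPM in germ cells and at 48.6, 102.2 and 162 CPM in somatic cells, without overlap (-4.21 ± 0.62, edgeR FDR = 7.96e-06). *Plagl1*, a zinc-finger transcription factor gene, was at 1.29, 3.07 and 23.9 CPM in germ cells and at 15.3, 86.4 and 215 CPM in somatic cells (-4.16 ± 0.41, edgeR FDR = 5.74e-08). Only the somatic cells of E11.5 lay within its germ cell range. *Nnat*, a small membrane proteolipid gene, and *Cd81*, a tetraspanin gene, also showed no overlap, at 25.9 ± 20.1 against 276 ± 122.3 CPM and at 84.3 ± 49.3 against 742 ± 155 CPM (mean ± SD, n = 16 pools).

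The members that were higher in germ cells were few. *Slc22a18*, a transporter gene of the *Kcnq1* cluster, was at 1.39, 14.8 and 31.3 CPM in germ cells and at 0, 0.394 and 5.41 CPM in somatic cells (4.29 ± 0.62, edgeR FDR = 6.83e-06). The highest somatic value was that of E16.5 replicate 1, and the lowest germ cell values were those of E13.5. Its neighbour *Phlda2*, which restrains placental growth, was at 10.8, 59.1 and 229 CPM in germ cells and at 0.223, 4.16 and 24.2 CPM in somatic cells (3.498 ± 0.45, edgeR FDR = 1.59e-06), with overlap through the germ cells of E13.5 and E14.5. *Zrsr1*, a relative of the splicing factor gene *U2af1*, differed by 0.80 ± 0.31 (edgeR FDR = 0.0294), a call lost when any 1 of 7 pools was left out (edgeR FDR up to 0.0598). *Gnas*, *Asb4*, *Ube3a*, *Snrpn*, *Slc38a4* and *Nap1l5* did not pass.

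Somatic transcripts were present in the germ cell sums. The 13 somatic markers summed to 209 ± 264 CPM in germ cells and to 3286 ± 1107 CPM in somatic cells (range 1618 to 5434), a ratio of 6.37%, and none of the 13 was at 0 in germ cells. Germ cell levels of *H19*, *Mest*, *Zim1*, *Plagl1* and *Nnat* were 6.19%, 6.45%, 7.17%, 8.22% and 9.37% of the somatic levels, and those of *Phlda2* and *Slc22a18* were 1021% and 1550%. The part of somatic RNA in the low germ cell levels was not tested. With germ cells limited to those under 150 CPM of the marker sum, 26 members passed, of which *Asb4*, *Gnas* and *Snrpn* were gained, while *Magel2* and *Zrsr1* were lost.

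After birth most members were again lower in germ cells. In 13 pools of PND0–PND14, 17 of 29 members tested were lower in germ cells and 4 higher, against 27.9% and 37.1% of 14720 genes, with a median log2 difference of -1.10 for members and 0.215 for all genes. *Slc22a18* was at 1.82, 6.79 and 22.02 CPM in germ cells and at 0, 0.283 and 1.66 CPM in somatic cells (lowest, median and highest of 13 pools), without overlap (3.92 ± 0.46, edgeR FDR = 4.23e-07). *Sgce* was at 2.12, 8.95 and 32.8 against 53.6, 85.6 and 141.1 CPM, again without overlap (-3.59 ± 0.31, edgeR FDR = 7.07e-09). *Cd81* was separate too, at 75.04, 182 and 256 against 676, 806 and 1123 CPM (-2.71 ± 0.18, edgeR FDR = 2.06e-10).

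*Meg3*, a maternally expressed long non-coding RNA, was at 3.43, 14.7 and 83.2 CPM in postnatal germ cells and at 11.96, 161 and 554 CPM in somatic cells (-3.54 ± 0.21, edgeR FDR = 3.83e-11). The overlap came from the somatic cells of PND12 replicate 2 and PND14. *Phlda2* was at 21.01, 52.6 and 87.4 against 0.893, 3.21 and 37.03 CPM (3.46 ± 0.32, edgeR FDR = 2.4e-08), and the only somatic value within the germ cell range was that of PND12 replicate 1. The other 2 higher members were *Slc38a4*, an amino acid transporter gene, and *Zrsr1* (1.67 ± 0.22 and 0.80 ± 0.24, edgeR FDR = 1.72e-06 and 0.00609). The marker sum in germ cells was 9.73% of that in somatic cells after birth (326 ± 185 against 3345 ± 825 CPM), and 18 members passed with germ cells under 150 CPM of it, *Slc22a18*, *Peg10* and *Peg12* being lost.

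**Figure D2:**
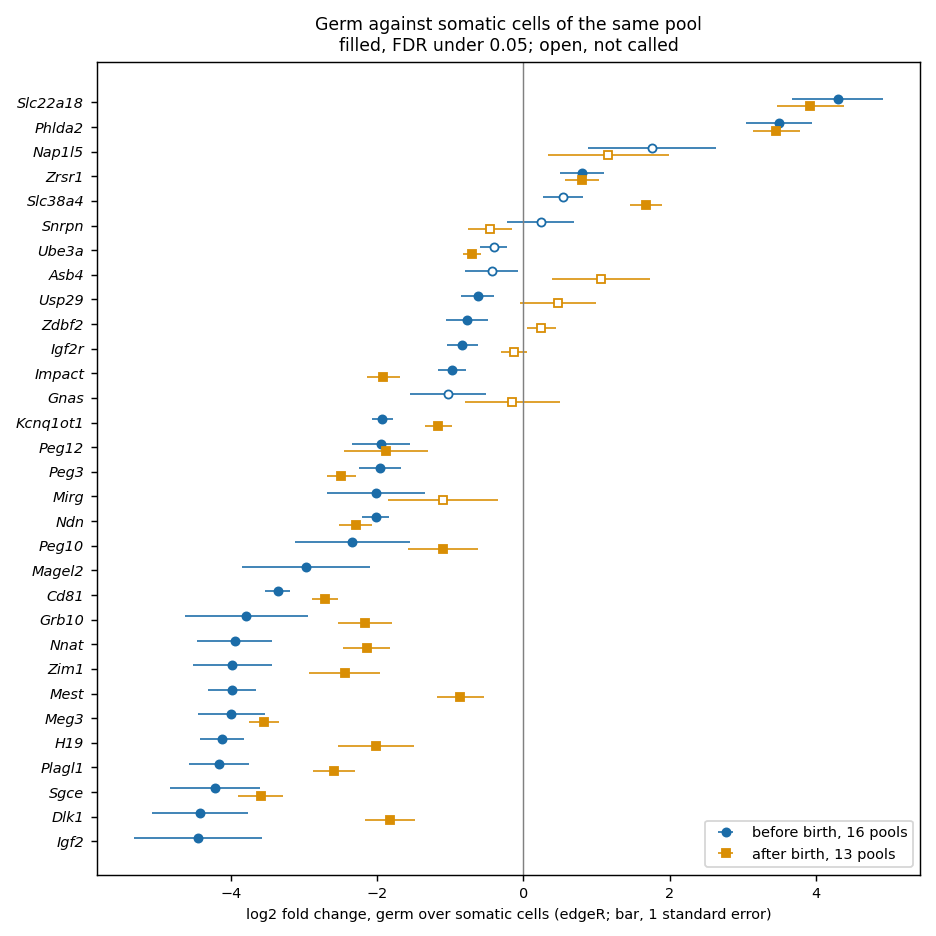
Log2 fold change ± SE of each member in germ cells relative to somatic cells of the same pools, before birth (16 pools, blue circles) and after birth (13 pools, orange squares), from edgeR, with filled symbols for an FDR below 0.05. *Slc22a18*, *Phlda2* and *Zrsr1* lie above 0 in both periods with filled symbols, and most other members lie below 0.

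Between stages of germ cells, *H19* (chr7:142575529-142578143, minus strand) had 4 changes that passed. It was at 633, 76.8 and 514 CPM in the 3 pools of E8.5, at 94.05 and 41.9 at E9.5, at 26.8, 43.9 and 165 at E10.5 and at 9.37 to 21.3 in the 6 pools of E11.5–E13.5. The highest values were those of E8.5 replicates 1 and 3, and the 2 stages did not overlap (-3.37 ± 0.64, edgeR FDR = 0.000169, and -2.05 without those 2 pools). *H19* fell once more from 11.04 to 37.5 CPM at E14.5–E16.5 to 4.90 to 18.9 at E17.5–PND1 (-1.51 ± 0.56, edgeR FDR = 0.0436, and up to 0.115 when 1 pool was left out), a call also lost with RLE size factors, a median-of-ratios scaling used in place of TMM (-1.19, edgeR FDR = 0.118) and DESeq2. It then rose to 26.6 to 45.6 CPM at PND2–PND4, above every pool of the preceding stage (2.12 ± 0.56, edgeR FDR = 0.00345). At PND30–adult it was at 0.0502 to 3.91 CPM, below every pool of PND10–PND14 with 9.04 to 23.7 (-3.42 ± 0.66, edgeR FDR = 2.47e-05, and -4.03 without Adult replicate 1). *Igf2* (chr7:142650766-142666816, minus strand) was at 0.0702 to 2.76 CPM at E8.5–E10.5 and stayed under that maximum in every later germ cell pool. Its only stage change that passed was from 0.0565 to 2.63 CPM at PND10–PND14 to 0 to 0.192 at PND30–adult (-2.67 ± 0.98, edgeR FDR = 0.0168), which did not pass without PND12 replicate 1 (-2.04, edgeR FDR = 0.0681) or with germ cells under 150 CPM of the somatic marker sum (-0.74, edgeR FDR = 0.610). *Igf2os*, which overlaps *Igf2* on the opposite strand, was at 4.71 ± 7.99 CPM (SD, n = 8 pools) at E8.5–E10.5 and at 1.62 ± 0.726 or less at later stages.

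In the *Dlk1*–*Meg3* cluster of chromosome 12, the paternally expressed *Dlk1* (chr12:109452823-109463336) and the maternally expressed non-coding RNAs *Meg3* (chr12:109541001-109571726) and *Mirg* (chr12:109729764-109749460), all on the plus strand, were low in the gonad at E11.5–E13.5. *Meg3* was at 38.6, 49.8 and 357 CPM in 8 pools of E8.5–E10.5 and at 4.20 to 15.7 in 6 pools of E11.5–E13.5, without overlap (-3.56 ± 0.72, edgeR FDR = 0.000397, and -2.95 without E8.5 replicate 1 or -2.48 without replicates 1 and 3). *Dlk1* was at 163, 4.96 and 165 CPM at E8.5, 8.42 and 0.317 at E9.5, 0.912, 8.73 and 26.7 at E10.5 and 0.444 to 9.30 at E11.5–E13.5. Its change (-4.06 ± 0.93, edgeR FDR = 0.00152) rests on the 2 high pools of E8.5, since without them the difference was -1.70 and did not pass. *Mirg*, a host of microRNAs, went from 3.09 to 81.4 to 0.338 to 3.11 CPM (-4.12 ± 0.80, edgeR FDR = 0.000244, and -3.41 without E8.5 replicate 1).

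All 3 genes were higher again from E15.5 or E16.5 on. *Dlk1* was at 4.16 and 2.27 CPM at E14.5, 25.3 and 5.63 at E15.5, 94.7 and 56.3 at E16.5 and 70.6 to 144.8 at E17.5–PND1. *Mirg* was at 0.609 and 2.06, 7.03 and 8.90, 25.9 and 27.9 and 5.35 to 30.1 CPM, and *Meg3* at 7.41 and 5.67, 35.8 and 13.4, 68.7 and 57.9 and 30.1 to 133.3 CPM. Both pools of E14.5 lay within the range of E11.5–E13.5 for each gene. *Dlk1* and *Mirg* rose from E11.5–E13.5 to E14.5–E16.5 (3.09 ± 0.91 and 2.88 ± 0.78, edgeR FDR = 0.00528 and 0.00258), while *Meg3* did not pass (1.45 ± 0.68, edgeR FDR = 0.0754). With RLE size factors *Meg3* passed (1.81, edgeR FDR = 0.0282). The rise of *Dlk1* was 4.18 without E13.5 replicate 1 and 2.39 without E16.5 replicate 1. The somatic marker sum in germ cells moved with these levels, from 14.3 to 101.9 CPM at E11.5–E13.5 to 443 and 117.05 at E16.5 and 143.6 to 897 at E17.5–PND1. With germ cells under 150 CPM of it, *Dlk1* and *Mirg* still rose at E14.5–E16.5 (2.74 and 2.60, edgeR FDR = 0.0237 and 0.0172).

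After birth the 3 genes parted. *Mirg* fell to 0.338 to 5.57 CPM at PND2–PND4 (-2.49 ± 0.74, edgeR FDR = 0.00822, and 0.0627 with germ cells under 150 CPM of the marker sum). *Dlk1* was at 16.1 to 63.04 CPM at PND5–PND14 and *Meg3* at 2.80 to 24.6. At PND30–adult *Dlk1* fell to 0.178 to 7.196 CPM, below every pool of PND10–PND14 (-4.38 ± 0.96, edgeR FDR = 0.000148), and *Meg3* fell from 2.80 to 24.6 to 0.0934 to 12.4 CPM (-1.77 ± 0.69, edgeR FDR = 0.0235). Without Adult replicate 1 these falls were -5.68 and -3.96, and that of *Meg3* did not pass when any 1 of 5 other pools was left out (edgeR FDR up to 0.121). *Mirg* instead rose from 0.338 to 6.73 to 2.93 to 45.5 CPM (4.46 ± 0.83, edgeR FDR = 1.53e-05). Its lowest pool there was Adult replicate 1, and the other 5 held 29.9 CPM or more, while the highest of the earlier pools was PND12 replicate 2, without which the rise was 5.25.

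**Figure D3:**
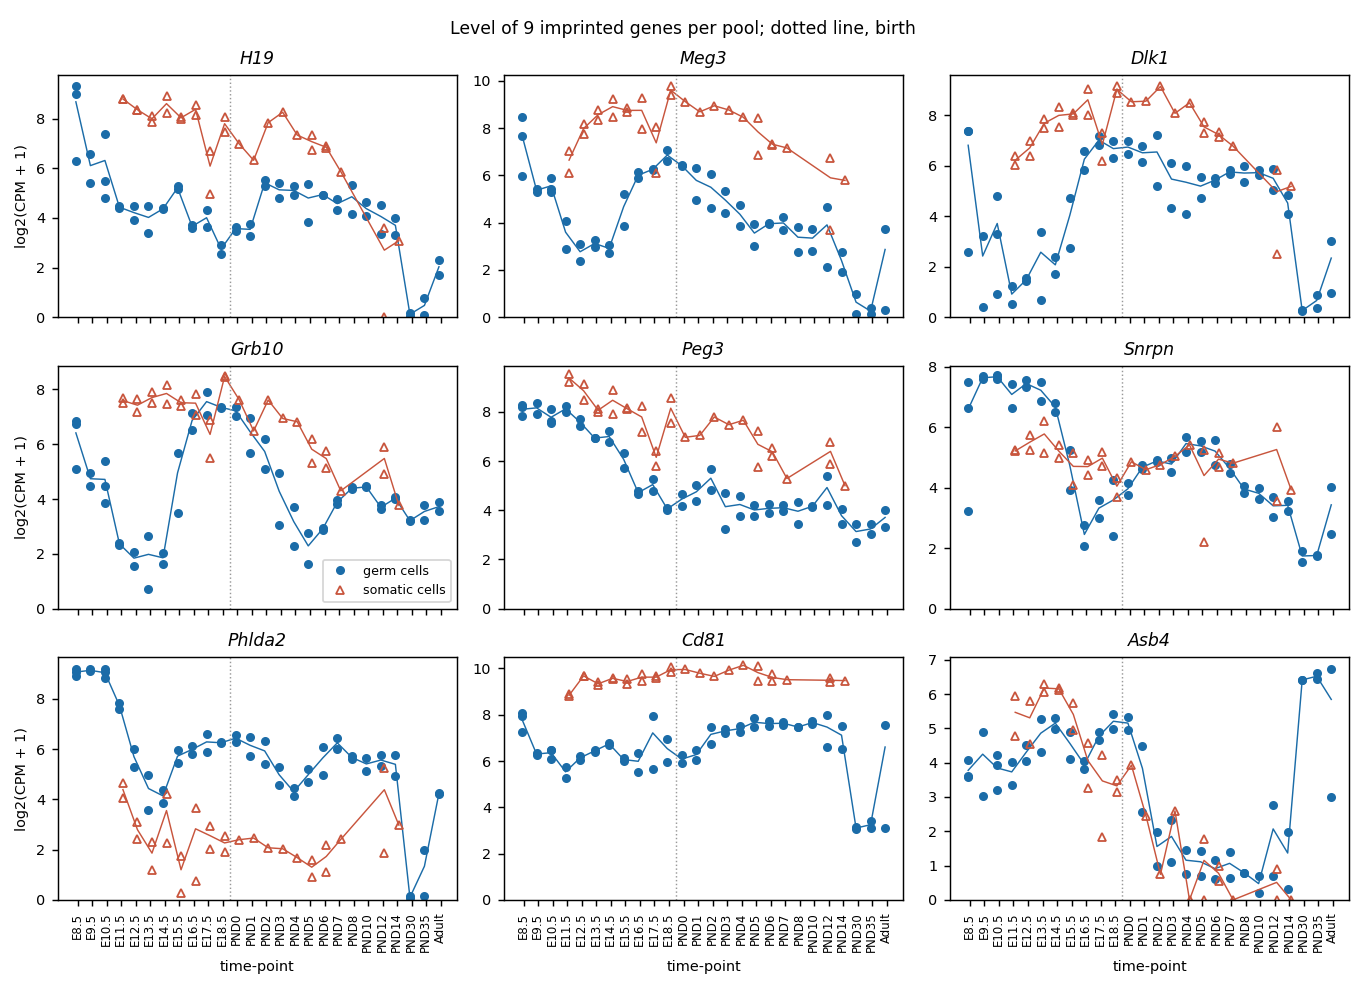
Level of 9 members (*H19*, *Meg3*, *Dlk1*, *Grb10*, *Peg3*, *Snrpn*, *Phlda2*, *Cd81*, *Asb4*) by time-point on a log2(CPM + 1) scale, with a point per pool. Blue circles are germ cells and red triangles somatic cells, with lines through the mean of each time-point and a dotted line at birth. In germ cells of E11.5–E14.5, *Dlk1* is at 0.444 to 9.30 CPM and *Grb10* at 0.628 to 5.27 CPM. At E16.5 they are at 94.7 and 56.3 CPM (*Dlk1*) and 141.4 and 89.7 CPM (*Grb10*). *Asb4* is at 84.7 and 83.7 CPM in germ cells at PND30.

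*Sgce* and *Peg10*, a retrotransposon-derived gene of the placenta, start side by side on opposite strands of chromosome 6 (chr6:4674350-4747207, minus strand, and chr6:4747306-4760517, plus strand). *Peg10* was at 121.3, 19.9 and 140.5 CPM at E8.5, 31.5 and 12.8 at E9.5, 4.63, 6.63 and 14.2 at E10.5 and 0.179 to 2.46 at E11.5–E13.5. *Sgce* was at 122.1, 15.03 and 63.6, 15.9 and 10.3, 3.47, 1.91 and 5.75 and 0.193 to 1.25 CPM at the same times. Neither gene overlapped between the 2 stages. Their changes (-5.62 ± 0.78 and -5.34 ± 0.82, edgeR FDR = 1.3e-06 and 7.54e-06) were the largest of all members in that comparison, and were -4.16 and -3.65 without E8.5 replicates 1 and 3. *Sgce* changed by -4.47 without E8.5 replicate 1 and *Peg10* by -6.38 without E11.5 replicate 2. At E14.5–E16.5 *Sgce* rose to 2.77 to 34.8 CPM, again without overlap (4.26 ± 0.79, edgeR FDR = 3.65e-05), and *Peg10* rose to 0.685 to 8.28 CPM (2.28 ± 0.69, edgeR FDR = 0.00622), or by 3.04 without E11.5 replicate 2, the high pool of the earlier range. No later stage comparison passed for either gene with all pools and TMM scaling. Without Adult replicate 1, both were lower at PND30–adult than at PND10–PND14 (*Sgce* by -1.60 and *Peg10* by -1.997, edgeR FDR = 0.0356 and 0.00756), and *Sgce* was lower at PND2–PND4 with RLE size factors (-1.78, edgeR FDR = 0.0402).

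*Asb4* (chr6:5383386-5433022, plus strand), a substrate-recognition subunit gene of a ubiquitin ligase, was at 4.90, 29.1 and 41.4 CPM in 8 pools of E17.5–PND1 and at 0.702 to 4.07 in 6 pools of PND2–PND4. The lowest of the earlier pools was PND1 replicate 1, and the stages did not overlap (-3.46 ± 0.62, edgeR FDR = 3.69e-05). It stayed at or under 5.78 CPM through PND14. At PND30 it was at 84.7 and 83.7 CPM, at PND35 at 95.97 and 85.5 and in the adult at 7.03 and 105.9. All 6 pools were above every pool of PND10–PND14, and the difference was 5.98 ± 0.71 (edgeR FDR = 3.85e-09). The low adult value belongs to replicate 1, the pool with few spermatid transcripts, and without it and PND12 replicate 1 the rise was 5.87. Without PND12 replicate 2, the highest pool of PND10–PND14, it was 6.83.

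In the *Peg3* cluster of chromosome 7, *Peg3* (chr7:6703892-6730431, minus strand) and *Usp29* (chr7:6730578-6967219, plus strand) are transcribed away from neighbouring starts. *Peg3*, a zinc-finger gene, was at 188 to 332 CPM at E8.5–E10.5, 304 and 252 at E11.5, 120.2 and 122.5 at E13.5, 51.8 and 80.4 at E15.5 and 24.1 and 26.5 at E16.5. It fell at E14.5–E16.5 (-1.64 ± 0.34, edgeR FDR = 0.000186) and at E17.5–PND1, to 15.2 to 37.6 CPM (-2.13 ± 0.32, edgeR FDR = 1.97e-06), both with overlap between neighbouring stages. *Usp29*, a ubiquitin-specific protease gene, was at 10.9 to 26.5 CPM at E8.5–E10.5, 14.1 to 25.5 at E11.5–E13.5, 14.2 to 26.4 at E14.5–E16.5 and 7.95 to 35.1 at E17.5–PND1. The 4 ranges overlapped, and no change between them passed. *Usp29* fell to 1.86 to 19.7 CPM at PND2–PND4 (-1.45 ± 0.33, edgeR FDR = 0.000765) and again at PND30–adult, to 0.854 to 3.30 CPM (-1.03 ± 0.34, edgeR FDR = 0.00815). *Zim1* (chr7:6671269-6696450, minus strand), a maternally expressed zinc-finger gene beside them, did not exceed 7.82 CPM in any germ cell pool and fell at PND30–adult to 0 to 0.716 CPM (-3.78 ± 0.82, edgeR FDR = 0.000125, and -5.67 without Adult replicate 1). With germ cells under 150 CPM of the marker sum neither fall at PND30–adult passed (*Usp29* -0.46 and *Zim1* -1.95, edgeR FDR = 0.297 and 0.0760), and that of *Usp29* was lost with RLE size factors too (edgeR FDR = 0.0633).

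The *Snrpn* cluster of chromosome 7 corresponds to the region affected in Prader-Willi and Angelman syndromes. Within it, *Snurf* and *Gm38393* overlap *Snrpn* on the same strand. *Snurf* was at 0 CPM at every germ cell stage, and a loss of *Snrpn* reads through this overlap was not tested. *Snrpn* (chr7:59982495-60140219, minus strand), which encodes a spliceosomal protein, was at 8.29 CPM in E8.5 replicate 1, 97.3 in E8.5 replicate 3 and 189.7 to 209.7 at E9.5 and E10.5. It was at 98.9 to 185 CPM at E11.5–E13.5, 90.4 and 110.5 at E14.5, 14.1 and 36.9 at E15.5 and 5.75 and 3.20 at E16.5. The change at E14.5–E16.5 passed (-1.96 ± 0.58, edgeR FDR = 0.00534), as did that at E17.5–PND1 (-2.09 ± 0.53, edgeR FDR = 0.00283), where the level was 4.25 to 25.8 CPM and both pools of E16.5 were already as low. With germ cells under 150 CPM of the marker sum the second change did not pass (-1.27, edgeR FDR = 0.167). *Snrpn* rose to 22.1 to 50.4 CPM at PND2–PND4 (1.51 ± 0.52, edgeR FDR = 0.0227), with overlap through PND1, a call lost without E17.5 replicate 2 or PND4 replicate 1 (edgeR FDR = 0.0546 and 0.0714), with RLE size factors (edgeR FDR = 0.0529) or with germ cells under 150 CPM of the marker sum (0.40, edgeR FDR = 0.740).

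*Ndn* (chr7:62346569-62350262, plus strand), a MAGE-family gene, passed in no comparison of neighbouring stages before the last. It was at 29.1 to 69.7 CPM at E11.5–E16.5, while *Snrpn* went from its high to its low, and at 11.9 to 123.002 CPM at E17.5–PND14. At PND30–adult it fell to 0.500 to 13.9 CPM (-3.66 ± 0.51, edgeR FDR = 8.78e-08), where Adult replicate 1 was the highest pool and the only one within the earlier range, and the fall was -5.08 without it. *Magel2* (chr7:62377010-62381640, plus strand), of the same family, did not exceed 1.44 CPM after E10.5. *Peg12* (chr7:62461871-62464510, minus strand), a *Frat* relative, fell at E14.5–E16.5 from 8.46 to 21.9 to 1.29 to 7.63 CPM, without overlap (-2.38 ± 0.62, edgeR FDR = 0.0017). *Ube3a* (chr7:59228750-59311536, plus strand), the ubiquitin ligase gene of Angelman syndrome, had stage means between 52.6 and 116.6 CPM. It fell at E14.5–E16.5 and at E17.5–PND1 (-0.69 ± 0.20 and -0.77 ± 0.18, edgeR FDR = 0.0047 and 0.00154) and rose at PND30–adult (0.79 ± 0.20, edgeR FDR = 0.000748), with overlap each time. The first call was lost with germ cells under 150 CPM of the marker sum (edgeR FDR = 0.0568) and the second with RLE size factors (edgeR FDR = 0.0874).

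In the *Kcnq1* cluster, *Phlda2* (chr7:143501545-143503150, minus strand) had the highest stage mean of any member, at 536 ± 46.2 CPM (SD, n = 8 pools) at E8.5–E10.5, and the 2 divergent pools of E8.5 were among the others (529 and 484). It was at 193 and 229 CPM at E11.5, 63.6 and 37.9 at E12.5 and 10.8 and 30.3 at E13.5. The 2 stages did not overlap (-2.46 ± 0.66, edgeR FDR = 0.00669). It was at 13.6 to 96.2 CPM from E14.5 to PND14 and fell at PND30–adult to 0.0419 to 18.1 CPM, without overlap (-2.40 ± 0.68, edgeR FDR = 0.00243, and -3.21 without Adult replicate 2).

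*Slc22a18* (chr7:143473736-143499334, plus strand) was high 3 times. It was at 13.7 to 93.4 CPM at E8.5–E10.5, 1.39 to 18.3 at E11.5–E13.5, 10.2 to 31.3 at E17.5–PND1 and 0.826 to 7.35 at PND10–PND14. At PND30–adult it was at 34.02 and 28.3, 38.4 and 35.9 and 3.82 and 37.9 CPM, with Adult replicate 1 inside the earlier range. The first fall (-2.41 ± 0.52, edgeR FDR = 0.000769) and the last rise (3.99 ± 0.57, edgeR FDR = 1.72e-07) passed. *Cd81* (chr7:143052739-143067934, plus strand) was at 92.01 to 256 CPM at PND2–PND14 and at 7.86 and 7.32, 7.49 and 9.53 and 185 and 7.72 at PND30–adult. The fall was 2.03 ± 0.49 on the log2 scale (edgeR FDR = 0.000441), or 3.89 without Adult replicate 1 and PND12 replicate 1.

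*Kcnq1ot1* (chr7:143203458-143296549, minus strand), the antisense non-coding RNA that silences the cluster on the paternal allele, fell at E11.5–E13.5 from 76.2 to 157 to 28.6 to 85.9 CPM and at E14.5–E16.5 to 29.8 to 50.4 CPM (-0.61 ± 0.22 and -1.03 ± 0.24, edgeR FDR = 0.0467 and 0.000544). The first of these did not pass when any 1 of 11 pools was left out (edgeR FDR up to 0.159). It rose from 49.6 to 81.4 CPM at PND5–PND8 to 85.9 to 151 at PND10–PND14, without overlap (0.78 ± 0.22, edgeR FDR = 0.0147), which did not pass without PND14 replicate 2 (0.59, edgeR FDR = 0.113). *Kcnq1* (chr7:143106362-143427042, plus strand), the potassium channel gene that it overlaps, had only 2 UMIs in the 6 pools of E11.5–E13.5 and stage ranges of 0.525 to 4.21 CPM at E17.5–PND1, 0 to 1.10 at PND10–PND14 and 0.428 to 2.88 at PND30–adult. Its calls rest on these few counts: E8.5–E10.5 held 60 UMIs, a ratio to E11.5–E13.5 of 18.6 per UMI sequenced (exact 95% interval 4.93 to 157), and E14.5–E16.5 held 182, a ratio of 80.8 (22.04 to 672), intervals that cover counting error only.

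Among the members outside these clusters, *Grb10* (chr11:11930508-12038683, minus strand), an adaptor gene that restrains growth signalling, fell at the entry into the gonad and rose before birth. It was at 13.55, 31.7 and 113.9 CPM in 8 pools of E8.5–E10.5 and at 0.628 to 5.27 at E11.5–E13.5, without overlap (-3.78 ± 0.65, edgeR FDR = 4.07e-05). It was at 3.11 and 2.12 CPM at E14.5, 49.9 and 10.1 at E15.5, 141.4 and 89.7 at E16.5 and 134.4 and 240.3 at E17.5. The rise at E14.5–E16.5 (3.41 ± 0.65, edgeR FDR = 4.98e-05) thus came from E15.5 and E16.5, and was 2.78 without E16.5 replicate 1. A fall to 3.87 to 71.2 CPM followed at PND2–PND4 (-2.22 ± 0.59, edgeR FDR = 0.00369).

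*Nap1l5* (chr6:58905233-58907076, minus strand), a relative of nucleosome assembly proteins inside *Herc3*, was the single member that rose from E8.5–E10.5 to E11.5–E13.5, from 0 to 1.07 to 1.25 to 5.08 CPM (3.34 ± 0.71, edgeR FDR = 0.000662). It rose again at E17.5–PND1, from 4.03 to 7.27 to 12.2 to 52.1 CPM (2.15 ± 0.71, edgeR FDR = 0.0238), and fell to 2.57 to 9.46 at PND2–PND4 (-2.04 ± 0.71, edgeR FDR = 0.0236). None of these 3 changes had overlap between the stages. The second did not pass without E14.5 replicate 1 (edgeR FDR = 0.0514), nor the third without PND3 replicate 1 or either pool of PND4 (up to 0.0567), and the first was 3.97 without E8.5 replicate 3 and 4.06 without E9.5 replicate 1. *Herc3*, on the opposite strand, was at 26.5 ± 5.42 CPM at E14.5–E16.5 and 28.9 ± 10.9 at E17.5–PND1. *Plagl1* (chr10:13060504-13131694, plus strand) rose at E17.5–PND1 from 1.39 to 9.43 to 11.499 to 23.9 CPM, without overlap (1.76 ± 0.56, edgeR FDR = 0.019, and up to 0.0589 without either pool of E14.5 or E15.5 replicate 2). With germ cells under 150 CPM of the marker sum this difference was 0.61 and did not pass (edgeR FDR = 0.552). *Plagl1* fell at PND30–adult to 0.0335 to 1.03 CPM (-4.12 ± 0.65, edgeR FDR = 9.08e-07, and -3.47 without PND12 replicate 1 or -4.91 without Adult replicate 1). *Nnat* (chr2:157560078-157562522, plus strand) rose at E14.5–E16.5 from 1.79 to 12.2 to 14.8 to 52.9 CPM, also without overlap (2.30 ± 0.58, edgeR FDR = 0.00136), an interval in which *Blcap*, on the opposite strand, went from 44.96 ± 15.485 to 80.5 ± 6.69 CPM.

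*Mest* (chr6:30723547-30748465, plus strand), which encodes a hydrolase-like protein of mesoderm, was highest at PND2–PND4, with 30.7 to 67.1 CPM, and fell from 9.79 to 27.3 at PND5–PND8 to 0.984 to 12.4 at PND10–PND14 (-1.88 ± 0.58, edgeR FDR = 0.0295), which did not pass when any 1 of 6 pools was left out (up to 0.096). *Zdbf2* (chr1:63273265-63314576, plus strand), a zinc-finger gene, rose in the same comparison to 31.8 to 48.5 CPM and again at PND30–adult to 41.3 to 90.2 CPM (1.01 ± 0.29 and 1.32 ± 0.32, edgeR FDR = 0.0195 and 0.000515), and the first of these rises did not pass without PND14 replicate 2 (edgeR FDR = 0.0586). *Slc38a4* (chr15:96994820-97055956, minus strand) was highest at E17.5–PND1, with 118.1 to 216 CPM, and fell at PND30–adult from 16.8 to 42.6 to 1.78 to 14.3 CPM (-1.93 ± 0.48, edgeR FDR = 0.000669). *Zrsr1* (chr11:22972005-22976496, plus strand) rose at E14.5–E16.5 from 22.01 to 56.4 to 52.4 to 144.9 CPM (1.29 ± 0.26, edgeR FDR = 0.00011), while *Commd1*, in whose intron it lies, was at 361 ± 58.9 and 369 ± 54.3 CPM.

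Of the last 3 members, *Igf2r* (chr17:12682406-12769664, minus strand), the receptor gene that clears IGF2, fell at E11.5–E13.5 from 44.9 to 165 to 18.1 to 42.99 CPM without overlap (-1.33 ± 0.39, edgeR FDR = 0.0138), a call that was lost without E8.5 replicate 1 (-1.09, edgeR FDR = 0.0595). It fell again at PND30–adult to 0.204 to 17.9 CPM (-2.47 ± 0.43, edgeR FDR = 4.91e-06, and -3.87 without Adult replicate 1). *Impact*, a regulator of translation under stress, had stage means from 51.8 CPM at E8.5–E10.5 to 2.07 at PND30–adult. *Gnas* (chr2:174284320-174346744, plus strand) rose at E17.5–PND1 from 1.99 to 9.06 to 6.33 to 19.98 CPM (1.17 ± 0.40, edgeR FDR = 0.0301, and up to 0.09 when 1 of 6 pools was left out), which did not pass with germ cells under 150 CPM of the marker sum (edgeR FDR = 0.237).

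Counted over all 32 members in one fit of the 54 germ cell pools, losses outnumbered gains at the entry into the gonad and after PND14. From E8.5–E10.5 to E11.5–E13.5, 16 members fell and 1 rose, where 18.3% of 24366 genes were called in either direction (2548 lower and 1907 higher), with medians of -0.956 for members and 0 for all genes. Without E8.5 replicates 1 and 3, or without replicate 3 alone, 10 fell. The sex of part of the embryos of E8.5–E10.5 was not given, and its part in this comparison was not tested. Of 19 paternally expressed members 8 fell and 1 rose, and of 12 maternally expressed members 8 fell. At E14.5–E16.5, 8 rose and 5 fell (31.9% and 14.6% of all genes), and at E17.5–PND1, 3 rose and 4 fell (8.09% and 14.7%). With RLE size factors the latter were 4 and 2, and with DESeq2 6 and 2. At PND2–PND4, 2 rose and 5 fell (16.3% and 16.7%), or 1 and 8 with RLE size factors and 2 and 9 with DESeq2.

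At PND5–PND8 edgeR called no member (0.911% and 2.79% of all genes rose and fell), although 4 had an unadjusted p under 0.05, namely *Mest*, *Slc38a4* and *Slc22a18* in the lower and *Ube3a* in the higher direction, and DESeq2 called *Mest* and *Slc38a4*. At PND10–PND14, 2 rose and 1 fell (8.08% and 1.81%). From PND10–PND14 to PND30–adult, 20 fell and 6 rose (27.2% and 35% of all genes), with medians of -1.65 for members and 0.222 for all genes. The 6 that rose were *Asb4*, *Mirg*, *Slc22a18*, *Kcnq1*, *Zdbf2* and *Ube3a*, of which *Zdbf2* alone is usually paternally expressed. Neighbouring comparisons share the pools of the stage between them.

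In sums over all somatic cells, members were either lower after birth or did not pass. Of 28 tested in 13 pools after and 16 before birth, 11 fell and none rose, where 5.75% and 8.04% of 12188 genes did, with medians of -0.69 and -0.015. *Asb4* was at 2.60, 28.1 and 77.5 CPM before and 0, 0.675 and 14.2 CPM after birth (-4.00 ± 0.71, edgeR FDR = 0.000309). It was already at 2.60 and 17.54 CPM at E17.5 and 7.85 and 10.2 at E18.5, so that the ranges overlapped, and the difference was -4.92 without PND0 replicate 1. The next largest changes were those of *Usp29*, from 11.4, 27.2 and 100.8 to 0, 2.72 and 24.4 CPM (-2.06 ± 0.49, edgeR FDR = 0.00517), and *Peg12*, from 2.08, 25.4 and 62.1 to 0, 1.76 and 18.7 CPM (-2.03 ± 0.59, edgeR FDR = 0.0181). *Mest*, at 13.8, 179 and 408 and 2.49, 44.3 and 162 CPM, and *Mirg*, at 3.07, 28.6 and 48.3 and 0, 6.92 and 28.8, also fell, and both overlapped (-1.87 ± 0.47 and -1.70 ± 0.59, edgeR FDR = 0.00736 and 0.0479). The call of *Mirg* was lost when any 1 of 21 pools was left out (edgeR FDR up to 0.0732). Cell makeup differed between pools, with 20 of 23 and 13 of 24 cells of E17.5, and 32 of 34 cells of PND12 replicate 2, carrying Sertoli markers. Within interstitial-marker cells alone 9 of the 11 falls were lost, and *Cd81* and *Ndn* were higher after birth (0.51 and 0.81, edgeR FDR = 0.00969 and 0.00566). Within Sertoli-marker cells alone 8 of the 11 were lost.

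Among somatic cells, the members that differed were at a higher level in CPM in those with interstitial markers. Interstitial-marker cells were defined by *Nr2f2*, *Pdgfra*, *Tcf21* and *Dcn*, and the share of androgen-producing Leydig cells among them was not measured. In 13 pools with both kinds, 15 of 26 members tested were lower in Sertoli-marker cells (the supporting cells of the tubule) than in interstitial-marker cells and none was higher. Of 10959 genes, 31.3% were called in either direction (1738 lower and 1695 higher), with medians of -1.53 for members and 0.028 for all genes. *Dlk1* was at 5.31, 17.4 and 102.2 CPM in Sertoli-marker and 191, 436 and 927 CPM in interstitial-marker cells, and *Meg3* at 0.882, 24.4 and 284 and 333, 661 and 919 CPM. Neither overlapped (-4.18 ± 0.39 and -4.77 ± 0.68, edgeR FDR = 1.67e-07 and 2.09e-05). *Dlk1* was not among the classifying markers, which were left out of the counts.

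*Mest* was at 0.331, 5.66 and 78.6 against 10.53, 139.2 and 362 CPM, *Mirg* at 0, 1.16 and 16.9 against 2.77, 22.4 and 108.2 CPM and *Zim1* at 0.295, 1.89 and 17.1 against 2.22, 46.1 and 104.8 CPM. All 3 overlapped between the cell kinds (-4.10, -4.05 and -3.89, edgeR FDR = 5.1e-07, 3.61e-05 and 5.81e-06). *H19* was at 135.02 to 237 CPM in Sertoli-marker cells at E13.5–E16.5, 16.6 and 14.503 at E17.5 and 0 to 15.03 after birth, whereas interstitial-marker cells still held 170.3 to 463 CPM at PND0–PND6 and 23.3 at PND14. *Snrpn* and *Kcnq1ot1* were among the members that did not pass, with differences of 0.40 ± 0.27 and 0.17 ± 0.23.

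**Figure D4:**
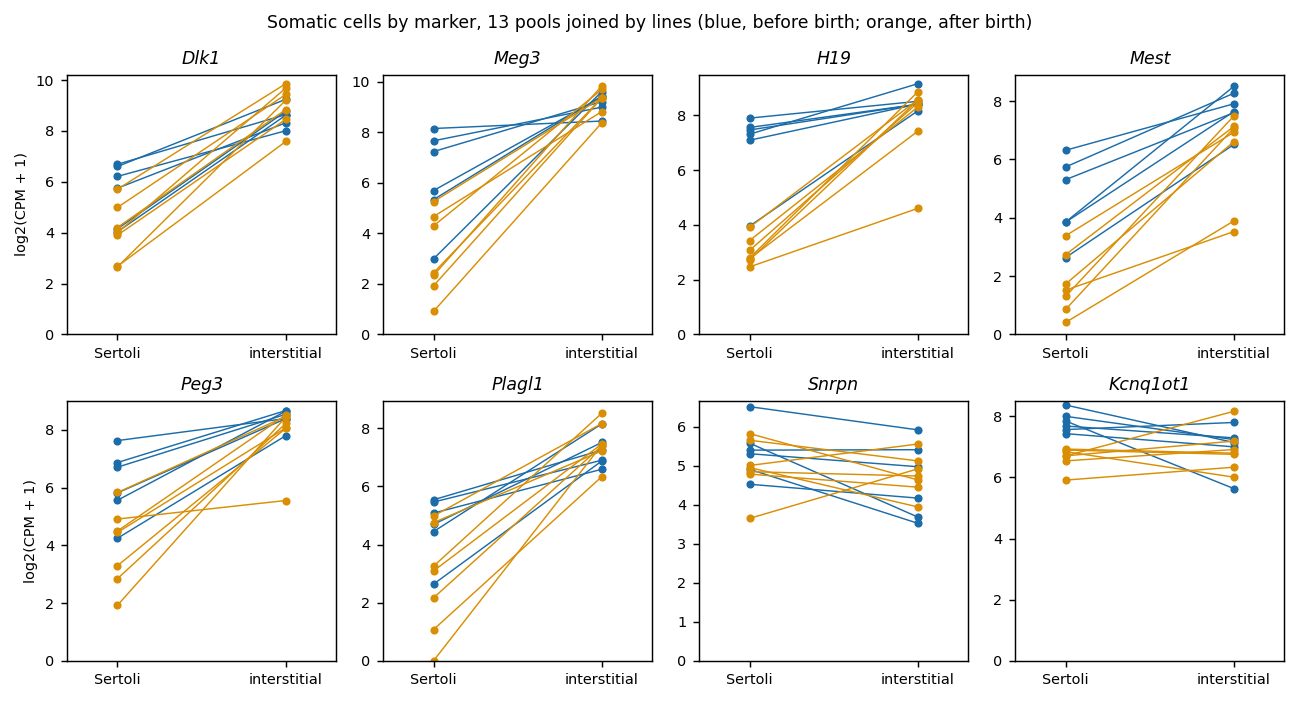
Level in CPM of 8 members (*Dlk1*, *Meg3*, *H19*, *Mest*, *Peg3*, *Plagl1*, *Snrpn*, *Kcnq1ot1*) in Sertoli-marker and interstitial-marker somatic cells of 13 pools, with the 2 values of a pool joined by a line, blue before and orange after birth. Lines of *Dlk1*, *Meg3*, *H19*, *Mest*, *Peg3* and *Plagl1* rise towards the interstitial side in all pools, and those of *Snrpn* and *Kcnq1ot1* go both ways.

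At PND30, cells were gated by DNA content, which is 4N in spermatocytes and 1N in round spermatids, with 2 pools per gate. Summed spermatid markers were at 514 and 502 CPM in 4N, 1289 and 1581 in 2N and 2129 and 3731 in 1N cells. Spermatid transcripts were thus present in every gate. Of 19 members tested, *Snrpn* alone passed and was higher in 1N cells, where 14.1% and 12.4% of 19167 genes were higher and lower. It was at 1.42 and 1.80 CPM in 4N, 2.17 and 6.97 in 2N and 4.39 and 9.16 in 1N cells (2.26 ± 0.65, edgeR FDR = 0.0382), but did not pass without 1N replicate 2 (1.52, edgeR FDR = 0.158), 4N replicate 1 (0.0882) or 4N replicate 2 (0.0823). *Asb4* was at 83.96 and 114.8 CPM in 4N, 87.2 and 94.5 in 2N and 73.9 and 42.9 in 1N cells, so all gates carried it (-0.63 ± 0.35, edgeR FDR = 0.197). *Mirg*, at 45.7 and 32.1, 33.1 and 21.1 and 26.7 and 20.4 CPM, and *Zdbf2*, at 85.6 and 70.1, 98.9 and 87.7 and 104.9 and 118.6 CPM, did not pass either. In counts simulated with a set spread, this comparison recovered 46% and 20% of seeded log2 changes of 2 and -2. For changes of 1 and -1 it recovered 0% and 2%. A member that did not pass may therefore still differ between the gates.

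**Figure D5:**
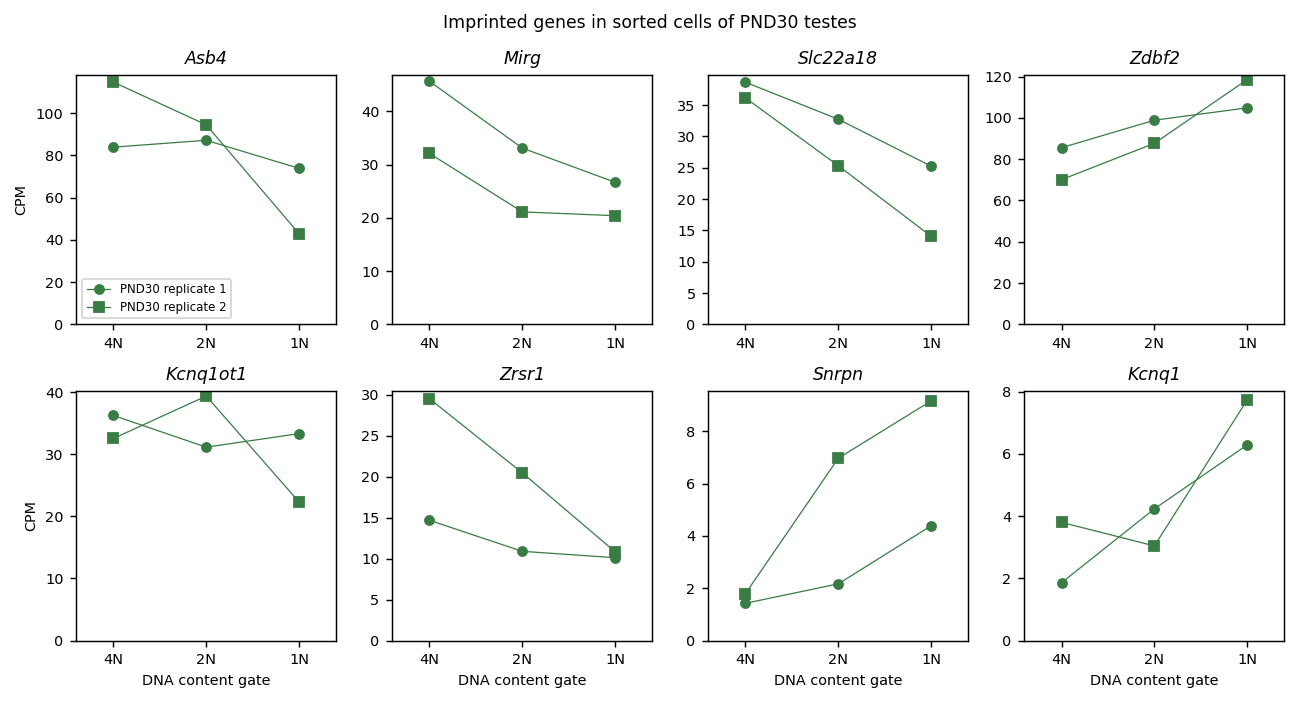
Level in CPM of 8 members (*Asb4*, *Mirg*, *Slc22a18*, *Zdbf2*, *Kcnq1ot1*, *Zrsr1*, *Snrpn*, *Kcnq1*) in cells of the 4N, 2N and 1N gates at PND30, a point per replicate (n = 2). Both 1N points lie above both 4N points for *Snrpn*, *Zdbf2* and *Kcnq1*, and below them for *Asb4*, *Mirg*, *Slc22a18* and *Zrsr1*. Such a lack of overlap was common among all 19167 genes tested, with 6743 higher and 7612 lower in 1N cells. Of the 19 members tested, 6 were higher and 9 lower in this way.

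A wider list of imprinted genes had 35 of 37 measured. Before birth 10 of 27 tested were higher and 8 lower in germ than in somatic cells, near the 34.5% and 26.5% of all genes. From E8.5–E10.5 to E11.5–E13.5, 4 of 35 rose and 8 fell (18.3% of all genes were called in either direction), at E14.5–E16.5 10 rose and 3 fell (31.9% and 14.6%), and at PND30–adult 8 rose and 11 fell (35% and 27.2%). *Airn*, the antisense partner of *Igf2r*, was at 1.33 ± 2.36 CPM in germ and 43.8 ± 25.05 CPM in somatic cells before birth (-6.68 ± 0.81, edgeR FDR = 7.62e-07). *Cdkn1c*, the cell cycle inhibitor gene of the *Kcnq1* cluster, rose at E14.5–E16.5 (1.20 ± 0.45) and fell at PND2–PND4 to 44.5 ± 22.7 CPM from 171 ± 51.5 (-1.62 ± 0.44, edgeR FDR = 0.027 and 0.00394).

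A list of 13 genes that set, protect or remove imprints was measured as well. *Dnmt3l*, a cofactor of *de novo* methylation, was at 0 in all pools of E11.5–E13.5 and at 17.8, 213 and 462 CPM in 6 pools of E14.5–E16.5. Against a floor of 3 counts over the earlier stage, that was at least 10414-fold higher. *Dnmt3a* rose from 64.7 ± 12.8 to 391 ± 172 CPM in that interval (2.19 ± 0.35, edgeR FDR = 3.83e-06), while the maintenance gene *Dnmt1* fell from 238 ± 53.5 to 124.9 ± 38.9 CPM (-1.22 ± 0.25, edgeR FDR = 0.000133). *Zfp57* was at 2.84 ± 1.95 CPM in germ and 41.8 ± 15.49 CPM in somatic cells before birth, without overlap (-4.21 ± 0.36, edgeR FDR = 1.05e-08), and rose in germ cells at PND30–adult to 24.2 ± 10.6 CPM (2.60 ± 0.58, edgeR FDR = 0.000168).

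The share of germ cells with at least 1 UMI moved with these levels when every cell was thinned to 50000 UMIs. Shares of *Col1a1*, a gene germ cells should lack, are given beside them. *Snrpn* was found in 97.4% of germ cells at E11.5–E13.5 and in 41.2% at E17.5–PND1, where *Col1a1* was found in 8.06% and 55.5%. *Dlk1* and *Grb10* went from 9.80% and 12.2% to 95.98% and 92.6%. At E11.5–E13.5 both were near the share of *Col1a1*, and at E17.5–PND1 the share of *Snrpn* was below that of *Col1a1*. Somatic cells before birth held 411 CPM of *Col1a1*, 240 of *Dlk1*, 200 of *Grb10* and 33.3 of *Snrpn*. The share of *Col1a1* is therefore not a background for each of these genes. The part of somatic RNA in the shares was not tested. *Asb4* was found in 2.47% of cells at PND5–PND8 and in 62.05% at PND30–adult, where *Col1a1* was found in 69.6% and 5.34%. Median depth was 273056 to 347018 UMIs per germ cell over the stages, 17 to 83 shallower cells per stage were left out, and without thinning *Asb4* was found in 8.70% and 83.1%.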

How the data were processed

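Single-cell libraries of all wild-type time-points were analysed. Per the labels and the study's methods, the authors demultiplexed with CASAVA, extracted UMIs with UMI-tools, aligned to mm10 with STAR and counted with featureCounts, and the deposited values are UMI counts per gene and cell (raw, not normalized). Cells were mapped to time-point and replicate through the deposited table of cells. The members and the gene lists were chosen with earlier results of these data known.

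Cells with more than 2000 genes and 10000 to 1000000 UMIs were kept, and counts were summed per pool and class, with at least 10 cells per sum. Levels are CPM of these sums. Differences were tested in R 4.3.3 with edgeR 4.0.16 (TMM, filterByExpr, glmQLFit and glmQLFTest, FDR under 0.05 over all genes tested), with the pool as a block for germ against somatic and Sertoli-marker against interstitial-marker cells and without a block elsewhere. The SE is the log2 fold change divided by the square root of F. Sertoli-marker and interstitial-marker cells had a marker sum of at least 100 CPM that exceeded the other sum. TMM moved the median of all genes by -0.351 (germ against somatic after birth), -0.337 (E14.5–E16.5), -0.379 (E17.5–PND1), 0.363 (PND2–PND4), 0.5 (PND30–adult) and 0.162 (1N against 4N) against library size scaling, and by 0.1 or less elsewhere. Every member is named with a value. Values per pool are given for members that passed and were among the 5 largest changes of a comparison, and for the pairs *H19*–*Igf2*, *Dlk1*–*Meg3*, *Peg3*–*Usp29*, *Peg10*–*Sgce* and *Snrpn*–*Ndn*. Other genes and pools named for their markers were chosen after their values were seen. Alternatives were DESeq2 1.42.0, other scaling and filters, a replicate block and leaving out pools. The fits were tested on simulated data with seeded changes. Positions are from GENCODE M21 and promoters from RefSeq.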

Additional observations from a re-analysis of the deposited data

Results flagged for a closer look

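In 18 of 177 groups of 4 to 10 pools, 10.2%, the highest or lowest pool lay far from the others (Dixon's criterion, which chance meets in about 1 of 20 groups). Adult replicate 1 accounted for 6 of them within PND30–adult, with *Mirg* at 2.93 CPM (nearest other pool 29.9), *Slc22a18* at 3.82 (28.3) and *Asb4* at 7.03 (83.7) below the rest and *Kcnq1ot1* at 159.9 (55.2), *Sgce* at 45.7 (4.55) and *Cd81* at 185 (9.53) above it. E8.5 replicate 1 was high for *Igf2r*, at 165 CPM against 97.4 in the nearest pool, and low for *Slc38a4*, at 0.305 against 99.8.

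E17.5 replicate 1 was high for *Nnat*, at 64.9 CPM (nearest 47.3), and *Cd81*, at 247 (121.7), and PND12 replicate 1 for *Peg3*, at 41.1 (17.6), and *Slc38a4*, at 42.6 (24.9). *Zrsr1* was at 56.4 CPM in E13.5 replicate 1 against 34.7 in the nearest pool. Among early embryo cells, E7.5 replicate 3 was high for *Mirg*, at 114.3 CPM (48.7), *Grb10*, at 447 (239), and *Sgce*, at 105.6 (61.2), while E6.5 replicate 1 was low for *Peg3*, at 117.2 (318), and E6.5 replicate 3 was high for *Cd81*, at 323 (229).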

How the results depend on the processing

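With each pool left out in turn, the number of members called ranged from 23 to 27 (25 with all pools) for germ against somatic cells before birth, 19 to 22 (21) after birth, 9 to 13 (11) for somatic cells, 14 to 17 (15) for Sertoli-marker cells and 0 to 3 (1) for 1N against 4N. For the germ cell stages in order of age it ranged from 11 to 17 (17), 13 to 14 (13), 3 to 10 (7), 5 to 8 (7), 0 to 1 (0), 0 to 3 (3) and 23 to 30 (26), and no call of a member changed direction when a pool was left out. Counts of members moved by over 1.5 times as follows. Somatic cells after against before birth gave 5 with interstitial-marker cells alone, where *Ndn* was higher after birth (0.808), and 4 with Sertoli-marker cells alone. 1N against 4N gave 2 with DESeq2 and 2 with no low-count filter. E11.5–E13.5 gave 11 with the replicate block, 11 without E8.5 replicates 1 and 3 and 10 without E8.5. E17.5–PND1 gave 4 with germ cells under 150 CPM of somatic markers, and DESeq2 gave 11 at PND2–PND4 and 2 at PND5–PND8. The replicate numbers share no stated source and the deviations of same-numbered pools correlated by -0.158 to 0.584 across genes, with 2 numbers to compare, so they were not taken as pairs, and the replicate block gave 9 for somatic cells, 8 at PND2–PND4 and the counts above or unchanged counts elsewhere. Over all genes, calls went from 1681 to 3712 (no filter), 815 (interstitial-marker) and 530 (Sertoli-marker) for somatic cells, from 3433 to 1136 with at least 20 cells per sum for Sertoli-marker cells, from 4455 to 2829 and 2256 without the E8.5 pools, from 8040 to 2160 at PND2–PND4 and from 903 to 172 at PND5–PND8 with germ cells low in somatic markers, and from 903 to 1564 with DESeq2. Leaving out 1 pool moved them from 5074 to 0 without 1N replicate 2 and 2213 without 4N replicate 2, from 903 to between 361 and 568 without PND2 replicate 1 or 2, PND3 replicate 2, PND7 replicate 1 or 2 or PND8 replicate 2, and from 2411 to 1219 and 1309 without PND12 replicate 2 and PND14 replicate 2. The cause was not tested. Of 3055 results of members under other settings, called or not, 2920 kept their side of the threshold, while 85 calls were lost and 49 gained. The remaining 1, that of *Ndn* in interstitial-marker cells, changed sign and passed, where it had not passed over all somatic cells. Changes of sign were counted only where a result passed in at least 1 of the 2 settings. Depth limits *Kcnq1*, which had 2 UMIs in all germ cells of E11.5–E13.5.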

Other observations

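Early embryo cells of E6.5 (3 pools) and E7.5 (4 pools), which enter no comparison, are given here as means ± SD beside reporter-positive cells of E8.5–E10.5 (8 pools). *Phlda2* was at 602 ± 415 and 700.4 ± 418 CPM, and then at 536 ± 46.2. *H19* was at 253 ± 72.9, 418 ± 160.2 and 199.4 ± 237, and *Peg3* at 293 ± 164, 434 ± 20.99 and 257 ± 52.6. *Snrpn* was at 254 ± 19.2, 179.8 ± 69.8 and 161 ± 71.6, *Cd81* at 245 ± 67.99, 225 ± 5.35 and 132.97 ± 80.2, and *Grb10* at 182 ± 50.9, 255 ± 132.3 and 47.5 ± 39.4. Every early embryo pool was above every E8.5–E10.5 pool for *Grb10*, while for the other 5 members the ranges overlapped.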
